A study of Mus musculus with 24 samples.

Results

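The genes examined encode splicing factors and heterogeneous nuclear ribonucleoproteins (hnRNPs). They were chosen by symbol alone: every gene of the array's annotation whose single symbol begins with Srsf and a digit, Hnrnp, Sf3a, Sf3b, Snrp, Prpf and a digit or U2af, or is Raly, under current or older spellings. This gave 63 genes of the 18193 genes with a single symbol, covered by 176 probe sets. For each gene the probe set with the highest mean, called its representative, stood for the gene. The gene counted as measured where 6 or more of the 24 arrays gave that probe set a log2 value of 5 or more. Of the 63 genes, 61 were measured, against 9825 genes of the whole array. Snrpn and Srsf12 were not measured, with means of 2.27 and 2.17, at or near the lowest value of the table (2.17). The 61 measured genes comprised 9 SR proteins, 20 hnRNPs, 8 Sm and other small nuclear ribonucleoprotein (snRNP) proteins, 12 genes of SF3 and U2AF, and 12 PRP proteins.

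The samples came from the mouse hepatocyte line MMH-D3, immortalized cells that had been cultured for 14 days with 2% DMSO to differentiate and then given a serum shock, a pulse of serum that aligns the clocks of cultured cells. RNA was collected every 2 h between 12 and 58 h after the shock, with 1 array per time point, 24 arrays in all. All groups carried the same treatment and differed only in time, and no unshocked sample is among them. The labels do not say whether the 24 samples came from separate cultures. Values are log2 expression made with GCRMA, which corrects the background of each probe, normalizes the arrays together and sums up the probes of a set.

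Splicing removes introns in a series of assemblies. The U1 snRNP pairs with the start of the intron, the dimer U2AF binds at its end, and the U2 snRNP, with its SF3A and SF3B subunits, settles on the branch site. The U4/U6.U5 tri-snRNP then joins, and PRP proteins drive its activation. SR proteins bind exons and mostly favour the use of nearby splice sites. HnRNPs coat the nascent RNA, often oppose SR proteins, and some also act on the stability and translation of mRNA. Many SR and hnRNP genes are known to adjust their own level through alternative exons that send the transcript to decay. In liver, the splicing of some transcripts is known to vary with the time of day.

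The promoters of 4 of the members named below are shown first. Hnrnpd fell most steadily, Srsf4 and Prpf19 had changes over 24 h that differed between the early and the late hours, and Hnrnpdl was the member with a daily rhythm. Each line holds the 250 bases before the RefSeq transcription start (mouse build GRCm38.p6), read 5′ to 3′ on the gene's strand, and the capitals mark a CACGTG E-box or the ETS motif CCGGAAG on either strand. The windows are chr5:99978939-99979188 (minus strand) for Hnrnpd, chr4:131873387-131873636 (plus strand) for Srsf4, chr19:10894981-10895230 (plus strand) for Prpf19 and chr5:100039223-100039472 (minus strand) for Hnrnpdl.
Hnrnpd: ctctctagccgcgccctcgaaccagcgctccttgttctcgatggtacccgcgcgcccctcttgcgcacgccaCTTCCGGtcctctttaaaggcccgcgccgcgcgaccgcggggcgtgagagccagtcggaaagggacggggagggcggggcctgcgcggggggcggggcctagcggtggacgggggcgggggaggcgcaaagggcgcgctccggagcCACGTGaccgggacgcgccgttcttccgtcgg
Srsf4: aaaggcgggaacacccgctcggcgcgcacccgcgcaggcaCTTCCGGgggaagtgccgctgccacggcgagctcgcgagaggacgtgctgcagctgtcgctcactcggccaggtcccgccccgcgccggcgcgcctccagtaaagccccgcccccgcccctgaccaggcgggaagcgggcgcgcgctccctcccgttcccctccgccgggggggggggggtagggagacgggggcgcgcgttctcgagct
Prpf19: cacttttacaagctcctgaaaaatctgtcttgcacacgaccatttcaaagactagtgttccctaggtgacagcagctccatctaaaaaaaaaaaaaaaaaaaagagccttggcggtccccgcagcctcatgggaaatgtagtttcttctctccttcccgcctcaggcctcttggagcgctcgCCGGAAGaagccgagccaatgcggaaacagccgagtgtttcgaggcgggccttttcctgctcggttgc
Hnrnpdl: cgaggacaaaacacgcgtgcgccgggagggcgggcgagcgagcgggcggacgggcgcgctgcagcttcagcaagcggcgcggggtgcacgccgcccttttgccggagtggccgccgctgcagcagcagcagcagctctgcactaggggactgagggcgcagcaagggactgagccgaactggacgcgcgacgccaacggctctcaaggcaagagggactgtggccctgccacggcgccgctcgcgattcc
Counted back from the base before the start as -1, the E-box of Hnrnpd began at -32 and its ETS motif at -178. The ETS motif of Srsf4 began at -210 and that of Prpf19 at -68. Hnrnpdl held no match to any motif searched. The windows of U2af1, Snrpa1, Srsf1 and Hnrnpr, also named below but not shown, held neither the E-box nor the ETS motif.

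Promoter windows were found for 56 of the 63 genes, of which 54 were measured. The ETS motif CCGGAAG stood in 16 of these 54 windows (29.6%), against 15.4% of the 8065 windows of all measured genes and 7.05% of 27025 windows of the table. CCAAT stood in 48.1% of the members' windows and 36.9% of those of measured genes. The E-box CACGTG, which the clock factors CLOCK and BMAL1 are known to bind, stood in 3 windows (5.56%), those of Hnrnpd, Prpf39 and Prpf40b, against 8.89% of measured genes. Of the other motifs searched on both strands, TGACGTCA, TGATGNAA and TTATGNAA each stood in 1.85% of the members' windows, against 2.84%, 1.82% and 1.79% of measured genes. The palindromic NRF1 motif stood in none of the members' windows and in 1.81% of those of measured genes. Each motif was counted on its own, whether or not it overlapped another. These are matches of letters, not binding sites.

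Per array, 39.4% to 42.1% of values equalled the table's lowest, and the median correlation of an array with the others 0.972 to 0.990. The difference between the 3′ and 5′ probe sets of the control transcripts, a measure of RNA degradation, was 0.318 to 0.511 for Actb, -0.487 to -0.36 for Gapdh and 1.23 to 2.02 for Pcx, whose highest value was at 50 h and lowest at 54 h. The array at 40 h stood apart, with the highest 18S rRNA control (3.86, against a median of 2.31) and the lowest median of kept probe sets (8.96). Of the 61 members, 10 had their lowest value on this array, as had 14.5% of all measured genes. The array at 42 h held the highest value of 11 members and of 15.2% of all measured genes, the largest such share of any array. It held the lowest value of 6 members and of 6.98% of all measured genes. Calls of named members that were lost without the arrays at 40 and 42 h are given with and without them, a setting chosen after seeing the data. Of 12 hepatocyte markers on the array 7 were measured, with Alb at 15.97, while Tat and Cps1 were at the lowest value. The bile duct marker Krt19 averaged 15.44 and the fetal marker Afp 11.89. All 4 proliferation markers were measured, and none of 7 fibroblast or 5 endothelial markers. Of 5 macrophage markers 2 were measured, Cd68 at 6.15 and Csf1r at 5.37. In bulk RNA of this kind, fewer cells with a transcript and less transcript per cell cannot be told apart.

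The measured members were bright and steady. All 61 had a log2 value of at least 5 on 24 of 24 arrays, so none was measured through a few arrays alone. Their mean levels ran from 6.66 (Prpf40b, a homolog of a yeast U1 snRNP protein) to 14.74 (Hnrnpk, which binds cytosine-rich RNA), with a median of 11.73 against 9.38 for all measured genes. Levels of different probe sets are not strictly comparable, because probes differ in how well they bind. After Hnrnpk, the brightest were Hnrnpab and Hnrnpf, and the dimmest beside Prpf40b were U2af1l4 and Prpf3. By family the median level was 12.45 for Sm and snRNP proteins, 12.25 for SR proteins, 12.04 for hnRNPs, 11.12 for SF3 and U2AF, and 9.38 for PRP proteins. From its lowest to its highest array a member moved by a median of 0.539 log2 units, against 0.752 for all measured genes. Among genes of mean level 11 to 13 the medians were 0.539 for 27 members and 0.607 for 1682 genes. The range was under 1 for 56 of the 61 members. Hnrnpa0 had the narrowest range (0.238) and Raly, a relative of Hnrnpc, the widest (1.96), with 8.61 at 18 h and 10.57 at 50 h. Neighbouring arrays of Raly differed by as much as blocks of arrays did, and it was called in no comparison.

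**Figure D1:**
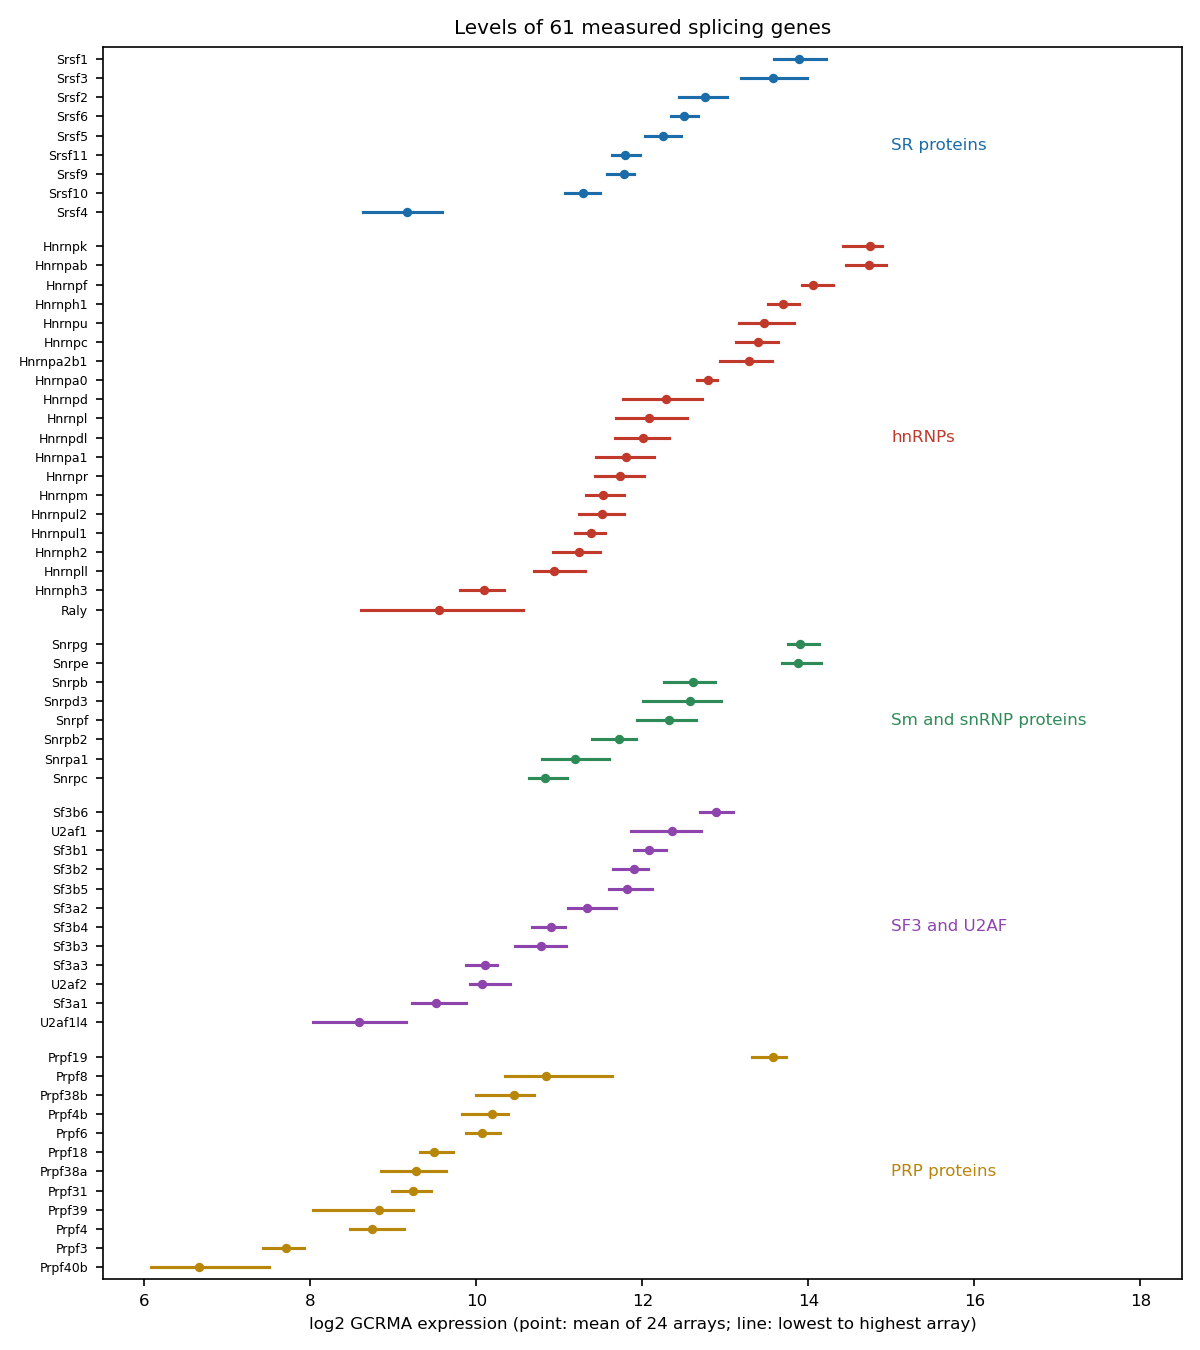
Mean log2 GCRMA level (points) and range from the lowest to the highest of the 24 arrays (lines) of the 61 measured members, by family. Levels run from 6.66 for Prpf40b to 14.74 for Hnrnpk, and the long line of Raly spans 1.96 log2 units.

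To compare times, the 24 arrays were taken as 6 consecutive blocks of 8 h with 4 arrays each, which stand in for replicates. The spread between them therefore also holds change within 8 h, and p-values measure only the spread between these arrays. A limma fit over all probe sets gave 3 comparisons, adjusted by the Benjamini-Hochberg method over 18526 probe sets. At 36 to 42 h against 12 to 18 h, which lie 24 h apart, 5 members were higher and 10 lower, where 14.3% and 12.1% of all measured genes were called. Between 44 to 50 h and 36 to 42 h, 7 were higher and 8 lower, against 20.5% and 12.7% of all genes. Between 52 to 58 h and 28 to 34 h, again 24 h apart, 8 were higher and 12 lower, against 21% and 15.3%. As shares of the 61 members, the higher calls were 8.2%, 11.5% and 13.1% in that order and the lower calls 16.4%, 13.1% and 19.7%. The first 2 of these comparisons share the 36 to 42 h arrays, so that a high or low value there moves both.

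The changes were small. A difference of at least 0.5 on the log2 scale was reached by 1 member at 36 to 42 h against 12 to 18 h, by none at 44 to 50 h against 36 to 42 h, and by 2 at 52 to 58 h against 28 to 34 h. Among all measured genes, 10.8%, 12.1% and 14.1% reached that size. The median difference over the members was -0.01, 0.00 and 0.04, against 0.00, 0.04 and 0.03 over all genes. In all, 29 members (47.5%) were called in at least 1 of the 3 comparisons, against 58.2% of all measured genes, and 32 in none. A fit of the 8 arrays with the 4 pairs of arrays 24 h apart as a block, also chosen after seeing the data, called 1 member higher (Hnrnpa2b1) and 2 lower (Hnrnpd and the SR gene Srsf3) at 36 to 42 h against 12 to 18 h, and 8 higher and 10 lower at 52 to 58 h against 28 to 34 h. Without the arrays at 40 and 42 h, the lower calls at 36 to 42 h against 12 to 18 h numbered 5 instead of 10, and the higher calls at 44 to 50 h against 36 to 42 h 4 instead of 7. Shares of all measured genes are not given for these fits, so the smaller counts cannot be called particular to the members.

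**Figure D2:**
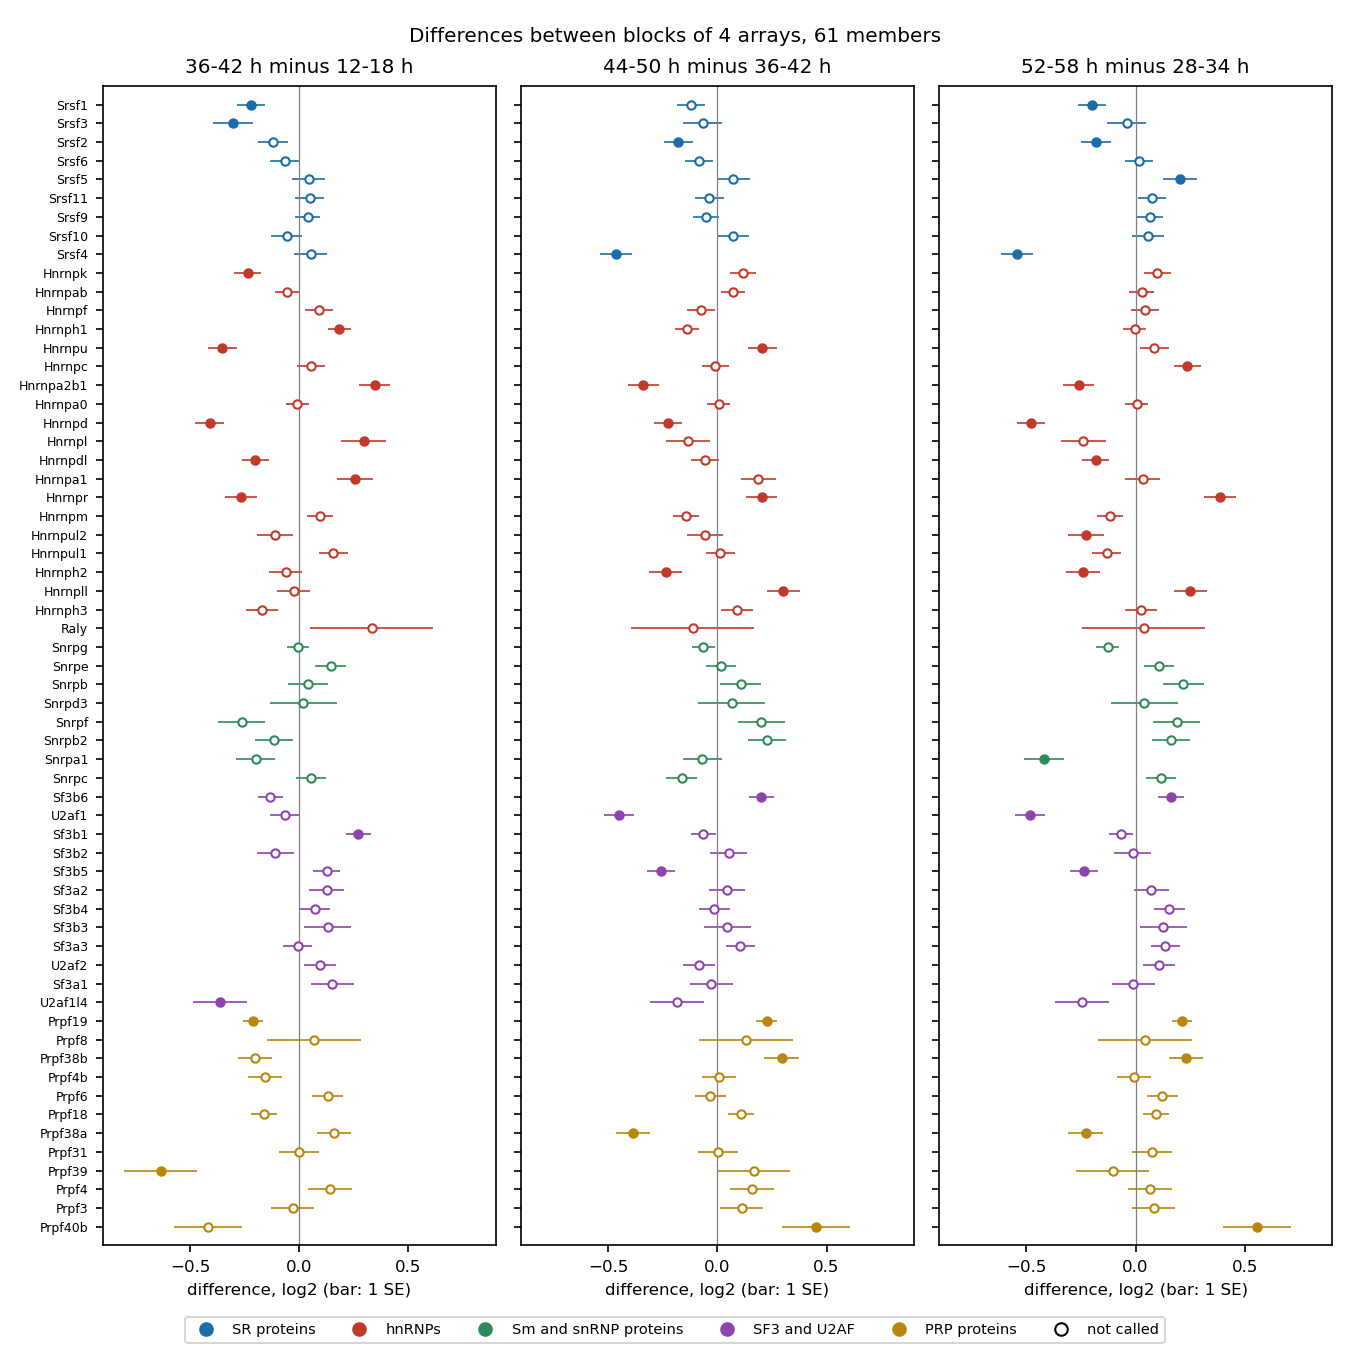
Difference between blocks (points, log2 scale, with 1 SE) for the 61 members in 3 comparisons, by family, with filled points for an adjusted p under 0.05 and open points otherwise. The points lie between -0.63 (Prpf39 at 36 to 42 h against 12 to 18 h) and 0.56 (Prpf40b at 52 to 58 h against 28 to 34 h), and the Sm and snRNP proteins are open except for Snrpa1 in the last panel.

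Over the whole 46 h, a linear term beside a 24 h cycle gave 6 members that rose and 14 that fell. These are 9.84% and 23% of the members, against 26.3% and 16.4% of all measured genes. Among SR proteins 1 of 9 rose and 4 fell, among hnRNPs 3 of 20 rose and 4 fell, and among Sm and snRNP proteins none of 8 rose and 2 fell. In SF3 and U2AF, as in the PRP proteins, 1 of 12 rose and 2 fell. The SF3 and U2AF gene that rose was Sf3b1, by its representative (0.22, adjusted p = 0.0178, limma). A dimmer probe set of Sf3b1 was called in the opposite direction (-0.46, adjusted p = 0.0391, limma), so this rise holds for 1 probe set only. The median fitted change was 0.01 over the members and 0.07 over all genes.

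Recognition of the intron's end was represented by U2af1, the small U2AF subunit that reads the terminal AG. Its levels were 12.11, 12.03, 11.98 and 12.07 at 44, 46, 48 and 50 h, against 12.49, 12.41, 12.59 and 12.50 at 36, 38, 40 and 42 h. The groups did not overlap, and every array from 44 h on was lower than every earlier one. U2af1 was lower by 0.45 ± 0.07 (SE) in this comparison (adjusted p = 3.72e-05, limma) and was 0.732 times the level at 36 to 42 h. It was also lower at 52 to 58 h than at 28 to 34 h, with a mean of 11.98 against 12.47 (difference -0.48 ± 0.07, adjusted p = 1.16e-05, limma). At 36 to 42 h it averaged 12.50, against 12.56 at 12 to 18 h, and was not called (-0.06, adjusted p = 0.534, limma). The linear term gave -0.70 over 46 h, and without the arrays from 44 to 58 h that value was -0.20 and no longer called (adjusted p = 0.281, limma). U2af2, the large U2AF subunit that binds the pyrimidine tract, was called in no comparison. U2af1l4, a paralog of U2af1, had 8.59, 8.38, 8.50 and 8.83 at 36 to 42 h, against 9.11, 9.15, 8.98 and 8.53 at 12 to 18 h. The groups overlapped through the array at 18 h, and the difference was -0.36 ± 0.12 (adjusted p = 0.0348, limma). Leaving out the array at 12, 14, 16, 36, 38 or 40 h ended this call, with values from -0.50 to -0.29 over all arrays left out and adjusted p up to 0.126. The call was also lost with the pairs of arrays 24 h apart as a block (adjusted p = 0.247, limma). Over 46 h U2af1l4 fell by 0.52 (adjusted p = 0.000982, limma). U2af1 had 1 kept probe set, so that no second one could be set beside it.

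The U2 snRNP and its SF3B part showed changes in 4 named members. Snrpa1, which encodes the U2 protein A′, had 10.80, 10.87, 10.79 and 10.84 at 52, 54, 56 and 58 h, against 11.27, 11.27, 11.33 and 11.09 at 28, 30, 32 and 34 h. The groups did not overlap, and the difference was -0.42 ± 0.09 (adjusted p = 0.00101, limma). Its other probe sets gave -0.38 and -0.36 and were also called. Over 46 h it fell by 0.65, and its other sets fell by 0.39 and 0.70.

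Sf3b5, a small SF3B subunit, averaged 11.69 at 44 to 50 h against 11.95 at 36 to 42 h (-0.26 ± 0.06, adjusted p = 0.00324, limma). Its second probe set gave -0.34 and was called. Without the arrays at 40 and 42 h neither set of Sf3b5 was called. The representative then gave -0.15 and the second set -0.20 (adjusted p = 0.111 and 0.157, limma). Its mean at 52 to 58 h was 11.64 against 11.88 at 28 to 34 h (-0.24, adjusted p = 0.00552, limma). Sf3b6, whose protein contacts the branch-point adenosine, lay in the other direction. It ran between 12.93 and 13.04 at 44 to 50 h, against 12.73 and 12.85 at 36 to 42 h, without overlap, a difference of 0.20 ± 0.06 (adjusted p = 0.0118, limma). Its other probe sets gave 0.11 and 0.00 and were not called, and the call was lost when each array was centred on its median (0.13, adjusted p = 0.128, limma). Sf3b1, the SF3B subunit that holds the branch site, is described with the genes whose probe sets disagreed.

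The Sm proteins, which form the ring around the spliceosomal RNAs, and the other snRNP proteins gave few calls. Of the 8 measured members none was called in the first 2 comparisons, with smallest adjusted p-values of 0.0765 and 0.0507 (limma). At an unadjusted p under 0.05, 2 of the 8 passed in each, against 38% and 43.7% of all measured genes. Their median absolute difference was 0.084 and 0.088 in these comparisons and 0.146 at 52 to 58 h against 28 to 34 h, where that of all 61 members was 0.129, 0.108 and 0.123. At 52 to 58 h against 28 to 34 h Snrpa1 alone was called among these representatives. Further sets of Snrpb2 (0.15) and Snrpd3 (-0.41) were also called there. Snrpg, a Sm ring protein named after its values were seen, fell by 0.21 over 46 h (adjusted p = 0.00453, limma). A p above the threshold does not show that the others did not change.

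Among SR proteins, Srsf4, a large family member, was lower late in the series. It had 9.06, 8.97, 8.92 and 8.87 at 44, 46, 48 and 50 h, against 9.41, 9.32, 9.36 and 9.58 at 36, 38, 40 and 42 h. The groups did not overlap, and the difference was -0.46 ± 0.07 (adjusted p = 5.98e-05, limma). At 52 to 58 h it had 8.63, 8.68, 8.70 and 8.73, against 9.30, 9.22, 9.20 and 9.19 at 28 to 34 h, a difference of -0.54 ± 0.07 (adjusted p = 6.12e-06, limma). For 36 to 42 h against 12 to 18 h it gave 0.05 (adjusted p = 0.655, limma). The late 24 h change minus the early one was -0.60 ± 0.10 (adjusted p = 0.000141, limma), a test that uses no array on both sides. Srsf4 had 1 kept probe set.

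Srsf1, the founding SR protein, declined over the series instead of stepping. Its block means from the first to the last 8 h were 14.04, 14.09, 13.92, 13.82, 13.70 and 13.72. The fitted change over 46 h was -0.54 ± 0.06 (adjusted p = 9.56e-07, limma), and each of its other 5 kept probe sets also fell, by 0.64, 0.56, 0.52, 0.33 and 0.46. The fall was called in every alternative tried, with adjusted p-values up to 0.00232. Srsf5 rose by 0.34 ± 0.08 over 46 h (adjusted p = 0.00151, limma), with block means of 12.26, 12.10, 12.13, 12.31, 12.38 and 12.33 in time order. Without the arrays from 44 to 58 h its fitted change was 0.12 and not called (adjusted p = 0.54, limma).

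Hnrnpd (AUF1), which binds AU-rich elements and is known to speed the decay of the mRNAs that carry them, fell most steadily of the members. Its levels were 12.65, 12.72, 12.69 and 12.62 at 12 to 18 h, 12.27, 12.30, 12.19 and 12.28 at 36 to 42 h, and 11.76, 11.84, 11.87 and 11.92 at 52 to 58 h. These blocks did not overlap. The fitted change was -0.87 ± 0.06 over 46 h (adjusted p = 2.7e-10, limma), which is 0.546 times the starting level. It was lower in each comparison: by -0.41 ± 0.06 at 36 to 42 h against 12 to 18 h, by -0.23 ± 0.06 at 44 to 50 h against 36 to 42 h, and by -0.48 ± 0.06 at 52 to 58 h against 28 to 34 h (adjusted p = 6.02e-05, 0.0104 and 5.24e-06, limma). Its dimmer probe sets fell by 1.80 and 1.39 over 46 h. The second of these averaged 4.68 and reached 5 on only 6 arrays, the fewest the filter allows, so its fall adds no support. At 44 to 50 h against 36 to 42 h the dimmer sets gave 0.11 and 0.36, neither called. With the mean of the kept probe sets that comparison gave 0.08 (adjusted p = 0.658, limma).

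**Figure D3:**
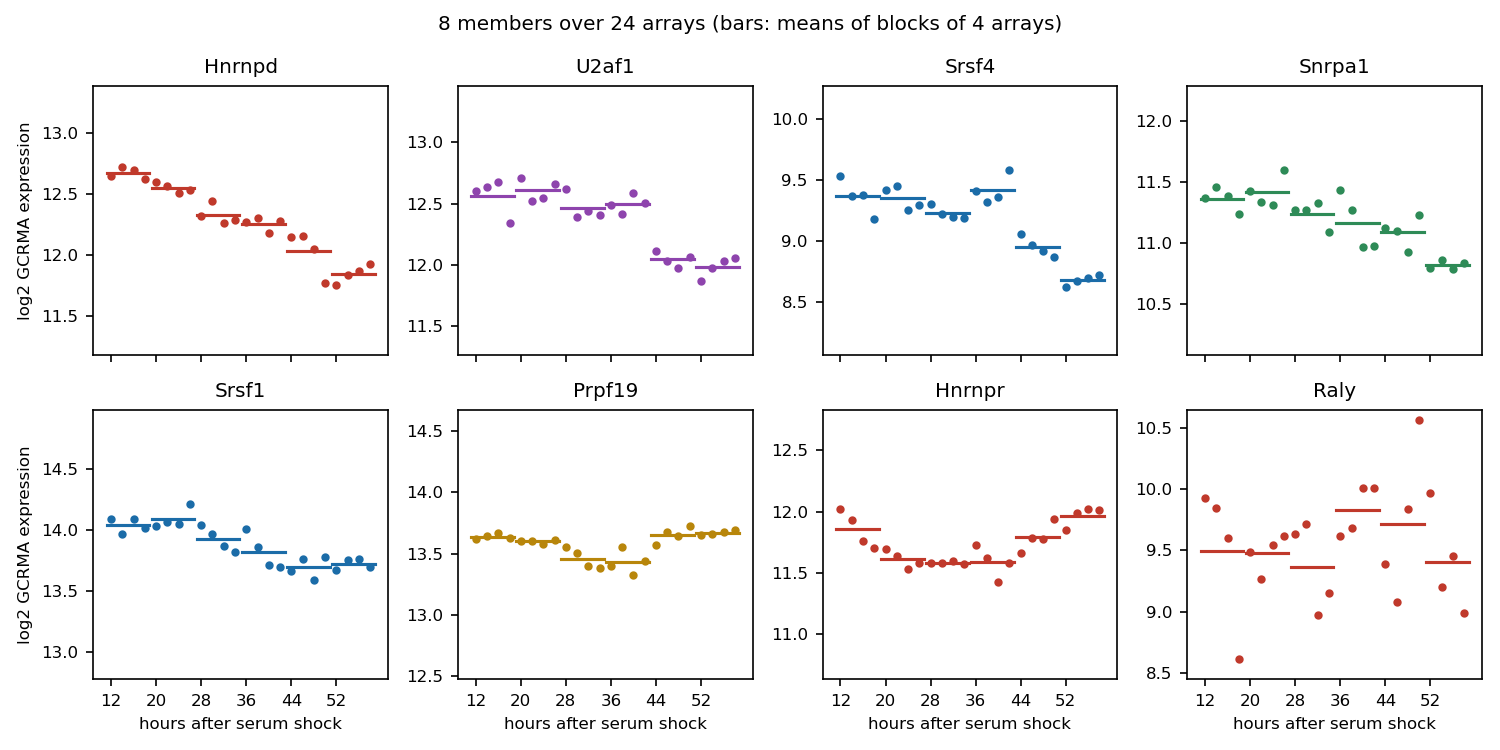
Log2 GCRMA level of 8 members on each array (points) against hours after serum shock, with the mean of each block of 4 arrays (bars), on panels of equal height. U2af1 and Srsf4 are lower from 44 h on, Hnrnpd declines throughout, Prpf19 and Hnrnpr are lowest in the middle blocks, and Raly scatters between neighbouring arrays.

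Hnrnpr, an RNA-binding protein closely related to Syncrip, was low in the middle of the series and high at both ends. It had 11.73, 11.62, 11.42 and 11.58 at 36 to 42 h, against 12.02, 11.93, 11.76 and 11.71 at 12 to 18 h. At 52 to 58 h it had 11.85, 11.99, 12.02 and 12.01, against 11.58, 11.58, 11.59 and 11.57 at 28 to 34 h. The differences were -0.27 ± 0.07 and 0.39 ± 0.07 (adjusted p = 0.00889 and 0.000243, limma), and their own difference was 0.65 ± 0.10 (adjusted p = 3.82e-05, limma). Both other probe sets gave the same signs and were called, at -0.42 and -0.34 for the early comparison and 0.31 and 0.28 for the late one. Without the arrays at 40 and 42 h the early difference was -0.18 and not called (adjusted p = 0.137, limma), and neither were those of the other sets (both -0.22), while the late one uses neither array and stayed at 0.39.

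Hnrnpu, a nuclear scaffold protein, was 13.29, 13.41, 13.47 and 13.17 at 36 to 42 h, against 13.82, 13.65, 13.58 and 13.69 at 12 to 18 h. The groups did not overlap, and the difference was -0.35 ± 0.07 (adjusted p = 0.000435, limma). Its 4 other kept probe sets gave -0.62 to -0.15 in this comparison, and none was called. Hnrnpu at 44 to 50 h was higher by 0.20 than at 36 to 42 h, a call lost without the array at 42, 46 or 48 h (0.15 to 0.25 over the arrays left out, adjusted p up to 0.089) and without 40 and 42 h (0.19, adjusted p = 0.0718, limma). The other sets gave -0.17 to 0.17 there, and none was called. Hnrnpk was lower by 0.24 at 36 to 42 h than at 12 to 18 h (adjusted p = 0.00583, limma). That difference rested on 14.44 and 14.41 at 40 and 42 h, against 14.72 and 14.76 at 36 and 38 h, and without 40 and 42 h it was -0.08 (adjusted p = 0.231, limma).

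Hnrnpll, a regulator of splicing best known from T cells, had 11.31, 11.16, 11.04 and 11.28 at 44 to 50 h, against 11.01, 11.07, 10.80 and 10.70 at 36 to 42 h. The groups overlapped, and the difference of 0.30 ± 0.08 (adjusted p = 0.00404, limma) was not called without 40 and 42 h (0.16, adjusted p = 0.151). Its second probe set gave 0.01 and was not called. Hnrnpc, which binds uridine tracts, was higher by 0.24 at 52 to 58 h than at 28 to 34 h (13.49 against 13.25, adjusted p = 0.00548, limma), and its second probe set by 0.31. Over 46 h it rose by 0.29, while the second set gave 0.02 and was not called. Without the arrays from 44 to 58 h the fitted change was 0.13 and not called (adjusted p = 0.476, limma).

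Hnrnpa1, Hnrnph1 and Hnrnpl were higher at 36 to 42 h than at 12 to 18 h, each by a difference that single arrays decided. Hnrnpa1, a widely studied splicing repressor, averaged 11.83 against 11.57 (0.26, adjusted p = 0.0246, limma). Leaving out the array at 12, 14, 18, 36, 38 or 42 h ended its call, with values from 0.21 to 0.35 and adjusted p up to 0.0938. Its second probe set gave -0.16 and was not called. Hnrnph1, which binds guanine runs, averaged 13.77 against 13.59 (0.18, adjusted p = 0.0154, limma) and lost its call without 14 or 36 h (adjusted p up to 0.0626). Its second probe set gave 0.04 and was not called, and the call was also lost with the mean of its kept probe sets. Hnrnpl, which binds CA repeats, averaged 12.15 against 11.85 (0.30, adjusted p = 0.0378, limma) and lost its call without 12, 14, 18, 36 or 42 h (0.21 to 0.36, adjusted p up to 0.153), and without 40 and 42 h together (0.26, adjusted p = 0.127, limma). Over 46 h Hnrnpa1 rose by 0.36 ± 0.10 (adjusted p = 0.00442, limma), and this was called in each alternative tried, with adjusted p-values up to 0.047. Its second probe set gave 0.29 over 46 h and was not called (adjusted p = 0.0814, limma). The representative of Hnrnpa1 can bind several transcripts by its design (suffix _x_at).

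Prpf19, the ubiquitin ligase that names the Prp19 complex, had block means of 13.64, 13.60, 13.46, 13.43, 13.65 and 13.67 in time order. Its levels at 44 to 50 h were 13.57, 13.68, 13.64 and 13.72, against 13.40, 13.55, 13.32 and 13.44 at 36 to 42 h, and the groups did not overlap (0.23 ± 0.05, adjusted p = 0.000785, limma). It was lower by 0.21 at 36 to 42 h than at 12 to 18 h and higher by 0.21 at 52 to 58 h than at 28 to 34 h (adjusted p = 0.00184 and 0.0011, limma). The difference between these changes was 0.42 ± 0.07 (adjusted p = 3.55e-05, limma). The representative probe set can bind several transcripts by its design (suffix _x_at), and its 3 other kept sets were called in none of these comparisons. They gave 0.01, 0.02 and 0.12 at 44 to 50 h against 36 to 42 h.

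The other PRP proteins moved both ways. Prpf38a, which enters the spliceosome at activation, had 9.05, 9.14, 8.95 and 9.26 at 44 to 50 h, against 9.44, 9.41, 9.47 and 9.64 at 36 to 42 h, without overlap (-0.39 ± 0.08, adjusted p = 0.000759, limma). Its paralog Prpf38b averaged 10.57 against 10.27 in the same comparison (0.29 ± 0.08, adjusted p = 0.00685, limma). At 36 to 42 h its lowest arrays were those at 40 and 42 h, and without them the difference was 0.12 (adjusted p = 0.231, limma). Prpf38b was also higher by 0.23 at 52 to 58 h than at 28 to 34 h, a call lost without 28, 34, 54 or 56 h (0.20 to 0.25, adjusted p up to 0.0789). Its second kept probe set gave 0.00 at 44 to 50 h against 36 to 42 h and 0.06 in the late comparison, neither called.

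Prpf39, a homolog of a yeast U1 snRNP protein, gave the difference of largest size among the members in the 3 comparisons of blocks, -0.63 ± 0.17 at 36 to 42 h against 12 to 18 h (adjusted p = 0.00755, limma). It had 9.08, 8.90, 8.15 and 8.03 at 36, 38, 40 and 42 h, against 9.24, 9.09, 9.19 and 9.19 at 12 to 18 h. Without 40 and 42 h the difference was -0.19 (adjusted p = 0.333, limma), and its other probe sets gave -0.07 and -0.10. Prpf40b had 7.50, 7.28, 6.97 and 6.70 at 52 to 58 h, against 6.51, 6.52, 6.51 and 6.69 at 28 to 34 h, without overlap (0.56 ± 0.16, adjusted p = 0.00805, limma). At 44 to 50 h it was higher by 0.45 than at 36 to 42 h, a call lost without 38, 46 or 48 h (0.36 to 0.55, adjusted p up to 0.108). This call of the dimmest member was also lost with quantile normalization, with each array centred, with no filter and in a fit of the 8 arrays alone. Over all alternatives its adjusted p reached 0.11 (limma). Prpf6, which bridges the U5 and U4/U6 snRNPs, rose by 0.23 over 46 h (adjusted p = 0.0136, limma) and lost this call under 5 alternatives, among them each array centred (0.16, adjusted p = 0.147, limma).

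Probe sets of some genes were called in opposite directions. Of 39 members with at least 2 kept probe sets, this was the case for 1 at 44 to 50 h against 36 to 42 h, for 2 at 36 to 42 h against 12 to 18 h, and for 1 at 52 to 58 h against 28 to 34 h. No share over all measured genes was counted, so opposite calls cannot be called particular to these members. Hnrnpa2b1, which encodes 2 splice forms of an hnRNP core protein, was the case in all 3. Its representative had 13.56, 13.52, 13.55 and 13.37 at 36 to 42 h, against 13.24, 13.17, 13.15 and 13.07 at 12 to 18 h, and the groups did not overlap (0.35 ± 0.07, adjusted p = 0.00114, limma). The other 3 kept sets gave -0.57, -0.33 and -0.25 and were all called lower in that comparison. Without 40 and 42 h these were -0.345, -0.15 and -0.11, of which only the first was called (adjusted p = 0.00814, limma). At 44 to 50 h against 36 to 42 h the representative gave -0.34 (adjusted p = 0.001, limma), while the others gave 0.47 and 0.21, both called, and 0.03. Without 40 and 42 h these were 0.24, 0.07 and -0.15, none of them called. At 52 to 58 h against 28 to 34 h it gave -0.26 (adjusted p = 0.00694, limma) and the other sets 0.32, 0.32 and 0.26, all called higher. With the mean of its kept sets the 3 differences were -0.20 at 36 to 42 h, 0.09 at 44 to 50 h and 0.16 at 52 to 58 h, the reverse of the representative's. No direction can be given for Hnrnpa2b1 as a gene.

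Sf3b1 was the other case. Its representative had 12.13, 12.24, 12.25 and 12.29 at 36 to 42 h, against 11.92, 11.89, 11.91 and 12.11 at 12 to 18 h (0.27 ± 0.06, adjusted p = 0.00124, limma). A dimmer set was called lower at 8.93, 9.17, 8.53 and 8.63, against 9.45, 9.38, 9.37 and 9.78 (-0.68 ± 0.13, adjusted p = 0.000627, limma). Without 40 and 42 h that set gave -0.44 (adjusted p = 0.0359, limma). The remaining sets gave 0.17 and -0.11, neither called, and without 40 and 42 h the second of them gave 0.245 and was called (adjusted p = 0.0408, limma). The mean of the kept sets gave -0.09 (adjusted p = 0.416, limma).

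Beyond such opposite calls, the 89 kept probe sets that were not representatives leaned downward in the early comparison. At 36 to 42 h against 12 to 18 h, 1 of them was called higher and 29 lower, where 9.8% and 12.9% of the 7327 further probe sets of all measured genes were called. The counts at 44 to 50 h against 36 to 42 h were 5 higher and 11 lower, against 20.8% and 9.44% of the 7327. The late 24 h comparison gave 13 and 14, against 20.2% and 11.7%. Several of these sets share a gene and are not independent. Without 40 and 42 h, 1 was higher and 18 lower in the early comparison, where 8.12% and 6.61% of the 7327 were called. At 44 to 50 h against 36 to 42 h 1 was then higher and 5 lower (1.12% and 5.62%), against 12.4% and 6.54% of the 7327. In the early comparison 13 of the 89 differed by at least 0.5, and all 13 were negative. Of the 7327 further sets, 5.75% were lower and 4.85% higher by that size. Without 40 and 42 h, 7 of the 89 were lower by at least 0.5, as were 2.93% of the 7327. The lowest were a set of the Sm protein gene Snrpd3 (-1.40), both dimmer sets of Hnrnpd (-1.38 and -1.34) and sets of Hnrnpdl (-1.07 and -0.93). The Snrpd3 set had 4.75, 4.99, 4.34 and 5.05 at 36 to 42 h, against 6.63, 5.99, 6.35 and 5.74 at 12 to 18 h, while its representative gave 0.02. Both it and the dimmest Hnrnpd set lay just inside the filter, with at least 5 on 7 and 6 arrays and means of 4.95 and 4.68. Just outside it were sets of Hnrnpa1 and Srsf11 with 2 such arrays and means of 4.02 and 4.45. At such levels the size of a difference is poorly measured. Which exons or ends of the transcripts these probe sets read was not examined here.

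In the other comparisons further sets also stood apart from their representatives. A second set of Snrpd3 was lower by 0.76 at 44 to 50 h than at 36 to 42 h (adjusted p = 0.000427, limma), with its representative at 0.07. A second set of Prpf31, a tri-snRNP protein, was lower by 0.85 at 52 to 58 h than at 28 to 34 h, with its representative at 0.07. Dim sets of Hnrnpu were higher by 1.04 and 0.57 in that comparison, and 1 set of the SR gene Srsf3 by 0.73, while their representatives gave 0.08 and -0.04 and were not called. For the SR gene Srsf6 the representative was called in none of these comparisons, with -0.07 at 36 to 42 h against 12 to 18 h, 0.02 at 52 to 58 h against 28 to 34 h and -0.12 over 46 h. Its 3 other sets were all called lower in each of these. They gave -0.49, -0.45 and -0.29 in the early comparison, -0.26, -0.23 and -0.22 in the late one, and -0.81, -0.73 and -0.57 over 46 h. These 5 genes were picked for the gap after their values were seen.

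**Figure D4:**
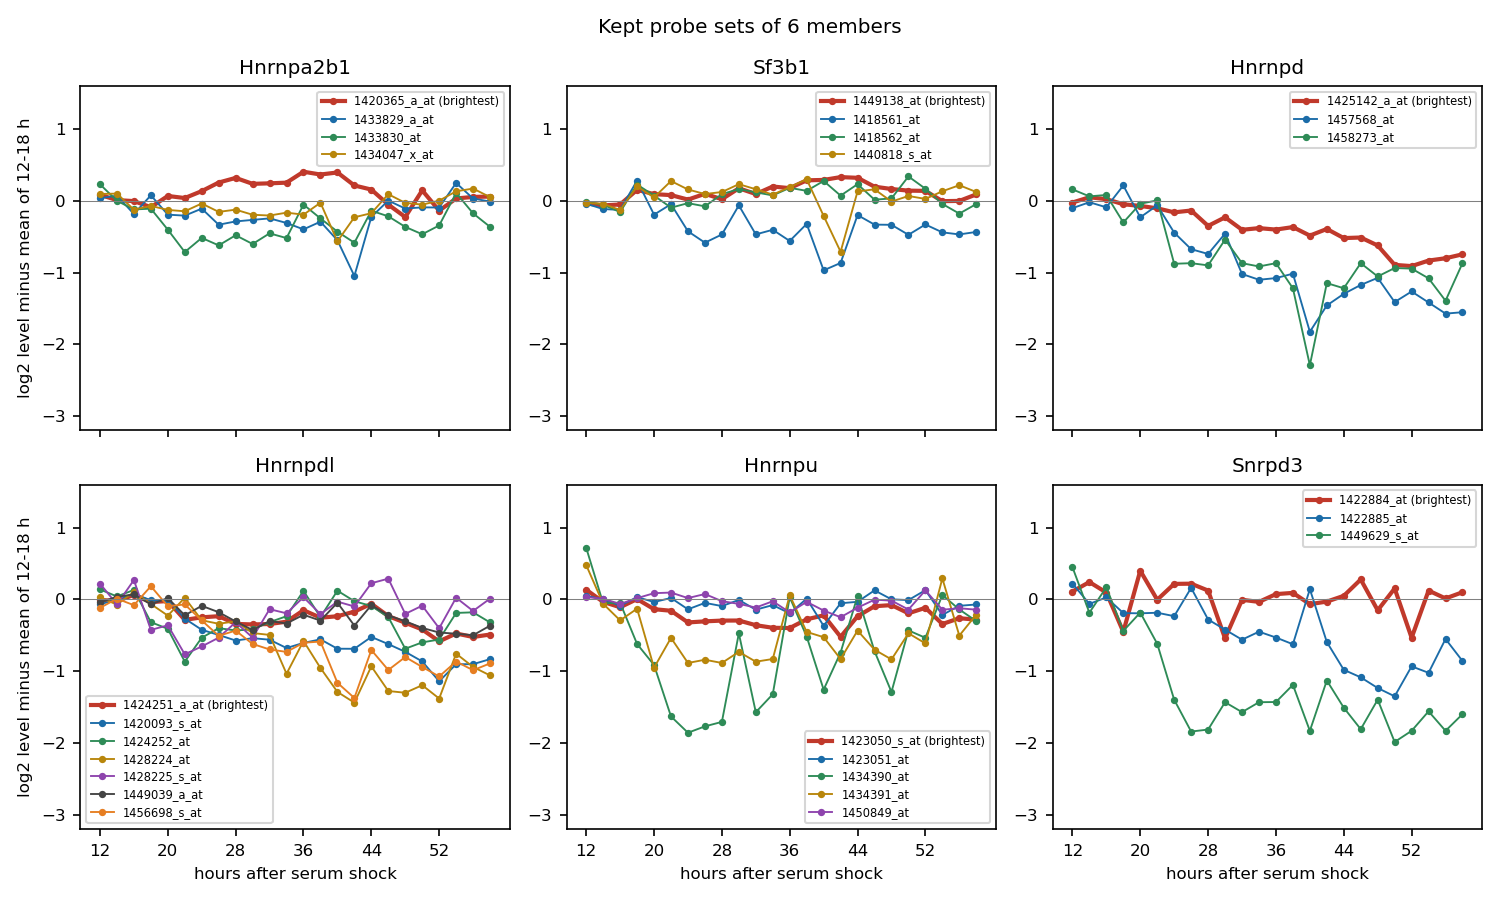
Log2 level of each kept probe set of 6 members minus its own mean at 12 to 18 h, against hours after serum shock, with the representative drawn thick. For Hnrnpa2b1 the representative lies above 0 in the middle hours and the other 3 sets below, and for Hnrnpd, Hnrnpdl and Snrpd3 dimmer sets drop by more than 1 log2 unit while the representative moves less.

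A daily rhythm was called for 1 of 61 members (1.64%), against 2.77% of all measured genes. With a quadratic drift the count was 6, without the array at 38 h it was 2, and without 44 to 58 h it was also 2. The share of all measured genes belongs to the main fit, and none is given for these alternatives. The member called in the main fit was Hnrnpdl, a relative of Hnrnpd that shuttles between nucleus and cytoplasm. It had 12.25, 12.24, 12.32 and 12.22 at 12 to 18 h, 11.92, 11.91, 11.92 and 11.95 at 28 to 34 h, 12.11, 12.00, 12.02 and 12.09 at 36 to 42 h, and 11.67, 11.78, 11.73 and 11.77 at 52 to 58 h. The level at 36 to 42 h lay above that at 28 to 34 h and below that at 12 to 18 h, and over 46 h it fell by 0.30. The fitted cycle had an amplitude of 0.14 ± 0.02 and a first peak at 17.3 h (adjusted p = 0.0066, limma), with a ratio of 1.22 between peak and trough. Of its 7 kept probe sets 3 were called rhythmic, with first peaks at 17.3, 17.9 and 13.7 h and amplitudes of 0.14, 0.12 and 0.30. The call held with each array left out, with adjusted p-values up to 0.0177, and was lost with the mean of the kept sets (adjusted p = 0.172, limma). At an unadjusted p under 0.05, 10 members (16.4%) passed the test of a 24 h cycle, against 20.6% of all measured genes. For a 12 h cycle limma called 0 members, against 0% of all genes, and 1 member, Raly (1.64%), passed at an unadjusted p under 0.05, against 1.85% of all genes.

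**Figure D5:**
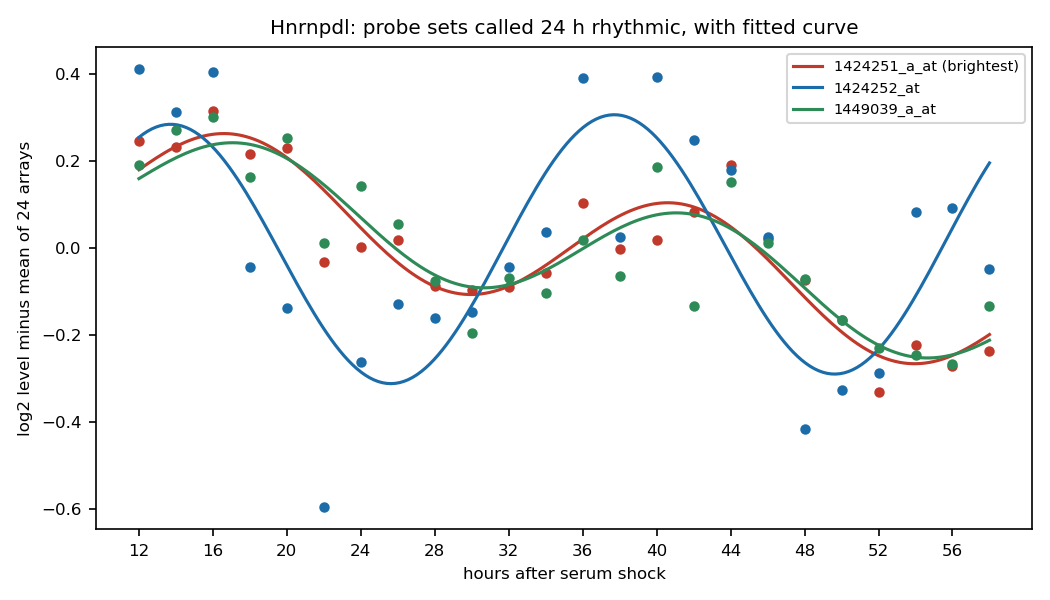
Log2 level of the 3 Hnrnpdl probe sets called 24 h rhythmic, minus the mean of 24 arrays (points), with the fitted curve of cosine, sine and linear change (lines), against hours after serum shock. The 2 brighter sets peak at 17.3 and 17.9 h, and the dimmer one, with the larger amplitude of 0.30, at 13.7 h.

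The late 24 h change minus the early one was called positive for 9 members and negative for 8, against 18.6% and 15.9% of all measured genes. Beside Prpf19, Hnrnpr, Srsf4 and Hnrnpa2b1 (-0.61 ± 0.10, with the other sets opposite), these included Hnrnpu (0.44) and U2af1 (-0.42), both of which are named above.

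Other splicing genes outside the symbol pattern were read from lists of 104 measured genes. Of these, 24 were higher at 44 to 50 h than at 36 to 42 h, and 11 lower (23.1% and 10.6%), near the 20.5% and 12.7% of all measured genes. At 36 to 42 h against 12 to 18 h, 10 were higher and 13 lower (9.62% and 12.5%, against 14.3% and 12.1%). In the late comparison 26 were higher and 13 lower (25% and 12.5%, against 21% and 15.3%). In the SMN complex, which loads the Sm ring, 4 of 7 were higher at 44 to 50 h than at 36 to 42 h, among them Gemin5 (0.57) and Gemin2 (0.52). Of 25 helicases and Prp19 complex genes 5 were higher and none lower in that comparison. Of 6 snRNP proteins with Snrnp symbols none was higher and 3 lower, and of 7 LSm ring genes 2 were lower, Lsm6 (-0.52) and Lsm3 (-0.36). Among SR kinases and SR-related genes 4 of 18 were higher and 2 lower. The kinase genes Clk1 and Clk4, whose products phosphorylate SR proteins, were higher by 0.30 and 0.38, and the SR-related Srrm1 was lower by 0.30. Among 33 other RNA-binding regulators 8 were higher and 3 lower, with Rbm39 (0.66) and Qk (0.60) of smallest p. Of the 104 genes 3 were called 24 h rhythmic, Esrp2, Gemin5 and Sfpq, where 2.77% of all measured genes were.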

How the data were processed

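RNA of 24 samples was measured on single-colour Affymetrix arrays. The deposited table holds log2 values, 1 per probe set. The submitters' processing notes name GCRMA, and its version is not given in the sources used here. Their range showed the log2 scale, and 41.2% of them equal the lowest value of the table, 2.17. The number of arrays limits the precision.

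From these values, probe sets with at least 5 in at least 6 arrays were kept (18526 of 45101, of which 64 are controls). Symbols come from GEO's platform annotation, with a single symbol for 34945 probe sets, more than one for 932 and no symbol for 9211. All 63 members matched RefSeq by Entrez ID, with 0 symbols changed. Models were fitted with limma 3.58.1 in R 4.3.3 with the variance prior allowed to follow mean level (trend): a linear term with a 24 h cosine and sine, and means of 6 blocks of 4 arrays. Adjustment (Benjamini-Hochberg, threshold 0.05) ran over all kept probe sets, and counts are by representative probe set. Promoters are RefSeq windows of GRCm38.p6, the first listed per gene.

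The members and lists were chosen with earlier results of these data known. Named were, in each comparison of blocks, the 6 called members of smallest p in each direction, the 4 of the rhythm, the rise, the fall and the difference between 24 h changes, members with opposite probe sets, and the 3 brightest and 3 dimmest; others were named after their values were seen. Identity between paralogous proteins was not analysed here.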

Additional observations from a re-analysis of the deposited data

Results flagged for a closer look

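For 4 members the 24 h change from 28 to 34 h to 52 to 58 h differed from that between 12 to 18 h and 36 to 42 h, by the limma test of the difference itself. These are the 4 of smallest p among 17 members called, and 18.6% of all measured genes were called positive and 15.9% negative. The late minus the early change was 0.422 for Prpf19 (adjusted p = 3.55e-05, limma), whose 3 other kept probe sets gave 0.10, 0.15 and 0.25 and were not called. It was 0.654 for Hnrnpr (adjusted p = 3.82e-05, limma), with 0.72 and 0.62 in its other probe sets, both called. It was -0.606 for Hnrnpa2b1 (adjusted p = 8.61e-05, limma), while its other probe sets gave 0.89, 0.65 and 0.52, all called in the opposite direction. It was -0.595 for Srsf4 (adjusted p = 0.000141, limma), which had 1 kept probe set.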

How the results depend on the processing

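Of 44 results for named members, 16 kept their direction and call under every alternative tried, 25 lost the call in at least 1, and a further 3 changed sign in 1 without losing it in another. Leaving out each array in turn gave 1 to 2 rhythmic members, 6 to 8 that rose and 13 to 15 that fell. It gave 4 to 9 higher and 7 to 9 lower at 44 to 50 h against 36 to 42 h, 2 to 7 higher and 7 to 14 lower at 36 to 42 h against 12 to 18 h, and 5 to 9 higher and 9 to 14 lower at 52 to 58 h against 28 to 34 h. The cause of these shifts was not tested, and shares of all measured genes are not given for the counts of this section. The extremes were 2 rhythmic without 38 h, 4 higher at 44 to 50 h without 46 h, 2 higher at 36 to 42 h without 14 or 36 h, 7 and 14 lower without 16 and 18 h, and 5 higher at 52 to 58 h without 54 or 56 h. A quadratic drift called 6 members rhythmic and leaving out 44 to 58 h called 2. Without 12 to 18 h, 11 members rose. At 44 to 50 h against 36 to 42 h, higher calls numbered 3 with centred arrays, 4 with no filter, 2 in a fit of the 8 arrays alone and 4 without 40 and 42 h, and lower calls 5 in a fit of the 8 arrays. At 36 to 42 h against 12 to 18 h, higher calls numbered 3 with no filter, 1 with the mean of kept probe sets and 2 in a fit of the 8 arrays, and lower calls 4 in that fit and 5 without 40 and 42 h. A fit of 8 arrays has fewer samples. At 52 to 58 h against 28 to 34 h, higher calls numbered 5 with no filter, which tests more probe sets.

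With the mean of kept probe sets 5 results changed sign: Hnrnpa2b1 gave 0.093 at 44 to 50 h, -0.202 at 36 to 42 h and 0.16 at 52 to 58 h, Hnrnpd 0.081 at 44 to 50 h and Sf3b1 -0.087 at 36 to 42 h, since their probe sets differ. Replicate numbers are not given, but arrays 24 h apart can be paired. With these pairs as a block, which leaves 3 residual degrees of freedom, 1 member was higher and 2 were lower at 36 to 42 h, and of the 11 results named there those of Hnrnpa2b1 and Hnrnpd kept the call. All 12 named at 52 to 58 h kept it. Signals near the lowest value have only an upper bound, which limits the dim probe sets of Snrpd3, Hnrnpd and Hnrnpu.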
